A study of Chlamydomonas reinhardtii with 6 samples.

Results

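The chloroplast unfolded protein response genes of Chlamydomonas reinhardtii, a unicellular green alga, were examined as a set of 6 genes in RNA from cells with and without 1 h of UV-B. They are VIPP1 (Cre13.g583550), VIPP2 (Cre11.g468050), the HSP22E and HSP22F pair (Cre14.g617400 and Cre14.g617450), CLPB3 (Cre02.g090850) and DEG1C (Cre12.g498500). They were chosen by identifier, and 6 of 6 were present among the 13452 genes of the deposited table. All 6 entered the test, which covered 13415 genes. The symbols come from the choice of genes and not from the deposited tables, which describe none of the 6, so the text names the members of the HSP22 pair by identifier. Which of that pair is HSP22E and which is HSP22F is not annotated in the tables used here.

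Cells came from stationary cultures of the strain CC-125 (137c mt+), which grew for 4 days as 15 mL dishes in an acetate-containing medium (TAP) and were placed in dim white light of 3.6 µmol photons per m2 and second. Narrowband UV-B tubes added 0.07 mW/cm2 to this light. In the 3 dishes of the 1 h UV-B group a filter with half-maximal transmission at 311 nm let UV-B through, and in the 3 of the no UV-B group a filter at 360 nm blocked it, so the groups differ in all light between those edges. The cultures are described as independent, and the labels give no other treatment of either group. Libraries held 7868534 to 11972794 reads assigned to genes, and the question is which transcripts respond within 1 h. Values are normalised read counts, CPM-like, on the authors' effective library size. They are shares of a library, so the value of a gene also depends on the RNA of the other genes. Each library pools many cells, so fewer cells expressing a gene and less of its RNA per cell cannot be told apart.

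The chloroplast unfolded protein response is a signal from the chloroplast to the nucleus. When proteins misfold or membranes are damaged inside the chloroplast, nuclear genes for chaperones, proteases and membrane-protecting proteins are switched on. In Chlamydomonas it was described in cells that lose the ClpP protease of the chloroplast, and the kinase MARS1 is needed for it. VIPP2 and the HSP22 pair are widely used as its readouts.

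VIPP1 rose after 1 h of UV-B, CLPB3 and Cre14.g617400 fell, and the other 3 members did not pass the test. Of the 6 members, 1 was raised and 2 were lowered at an adjusted p of 0.05 (limma with a mean-variance trend on log2(value + 1), Benjamini-Hochberg adjustment over all genes tested). Of all 13415 genes, 59.0% passed the same threshold, 29.5% raised and 29.6% lowered, so the share of members past it was not above that of genes in general. The median log2 fold change of the members was -0.34, against 0.00037 over all genes tested. No member is listed in the authors' deposited table, which holds 2596 genes and whose smallest absolute log2 fold change is 1.00.

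**Figure D1:**
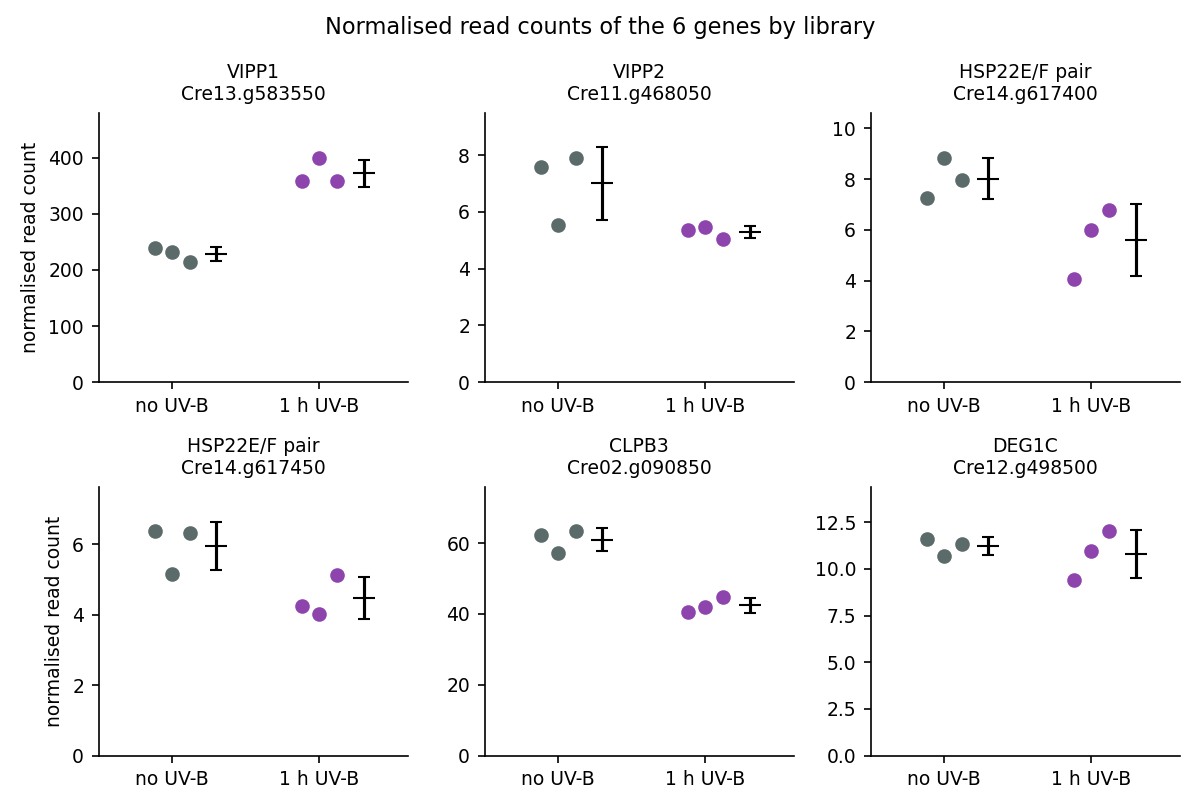
Normalised read count (vertical axes, each starting at 0) of the 6 genes in the 3 no UV-B and 3 UV-B libraries; each point is 1 library, and the bars are the group mean with its SD. VIPP1 lies higher with UV-B in every library, CLPB3, VIPP2 and the HSP22 pair lie lower, and the DEG1C groups overlap.

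VIPP1 and VIPP2 encode proteins that coat and remodel membranes. VIPP1 is needed for the formation and upkeep of thylakoids, and its oligomers are assembled and taken apart by the chaperone HSP70B with J-domain partners. VIPP2 is a paralog of VIPP1 in this alga that is low in unstressed cells and accumulates under chloroplast stress.

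The normalised read count of VIPP1 was 240, 232 and 214 without UV-B and 359, 400 and 358 with UV-B. All UV-B values lay above all no UV-B values. The groups did not overlap in 5 of the 6 members, 1 higher and 4 lower with UV-B, and in 63.2% of all genes tested, 31.7% higher and 31.6% lower. The mean went from 228 ± 13.2 to 372 ± 24.0 (SD, n = 3 per group), a 1.63-fold rise. Its log2 fold change was 0.70 ± 0.07 (SE, limma adjusted p = 6.35e-10), with a 95% interval of 0.56 to 0.84. With 18515 reads over the 6 libraries it was the most deeply counted member, and its ratio of pooled reads was 1.63 with an exact 95% interval of 1.58 to 1.68 for counting error alone. Of all genes tested, 13.6% had a higher log2 fold change than VIPP1.

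VIPP2 had a normalised read count of 7.57, 5.54 and 7.90 without UV-B and of 5.37, 5.47 and 5.05 with it. No UV-B replicate 2 lay next to the UV-B values, yet the groups did not overlap. The mean was 7.00 ± 1.28 without UV-B and 5.30 ± 0.217 with UV-B (SD, n = 3), and the log2 fold change was -0.33 ± 0.16 (SE, limma adjusted p = 0.0672), which does not pass the threshold. A rise of VIPP2 was not seen: the 95% interval of the fold change ended at 0.990, on the log2(value + 1) scale. Without no UV-B replicate 2 the log2 fold change was -0.47 (limma adjusted p = 0.0152), and with edgeR on recovered reads it was -0.43 (adjusted p = 0.0393, where 59.0% of all genes passed). The other 17 of the 19 alternatives did not pass. DESeq2 on recovered reads gave an adjusted p of 0.115, where 50.8% of all genes passed. Libraries scaled to an equal total gave a limma adjusted p of 0.198, with an interval that ended at 1.06-fold. Over all alternatives the adjusted p ran from 0.0152 to 0.236 and the direction stayed downward.

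The VIPP genes were also compared with each other. Within each library the log2 value of VIPP2 was set against that of VIPP1, where the offset itself carries no information because transcript lengths were not used. This difference was -4.81, -5.15 and -4.59 without UV-B and -5.82, -5.95 and -5.89 with UV-B. The mean difference changed by -1.03 with UV-B, VIPP2 being lower relative to VIPP1, and the groups did not overlap. The two-sided exact permutation test gave p = 0.1, the smallest value that 3 libraries against 3 can reach.

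**Figure D2:**
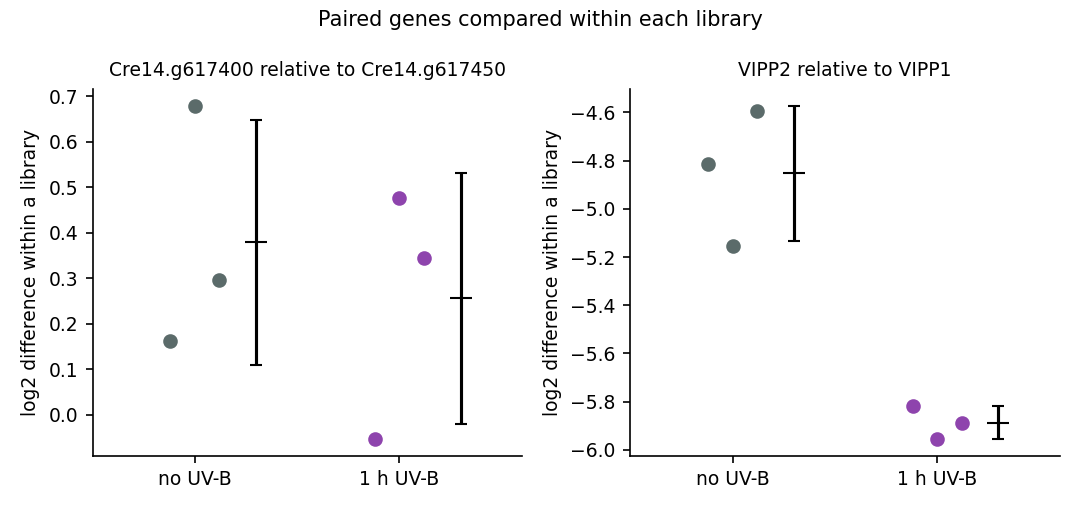
Difference of log2(value + 1) within each library (vertical axes) for Cre14.g617400 relative to Cre14.g617450 on the left and for VIPP2 relative to VIPP1 on the right; points are libraries and bars the group mean with its SD. The 3 UV-B libraries lie below the 3 no UV-B libraries on the right, while the groups overlap on the left.

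HSP22E and HSP22F encode small heat shock proteins of the chloroplast, which bind unfolding proteins and stressed membranes without using ATP. In the RefSeq gene table (assembly Chlamydomonas_reinhardtii_v5.5) Cre14.g617400 and Cre14.g617450 are immediate neighbours. No source used here states how reads shared by such similar genes were assigned, and their split between the pair is uncertain.

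Cre14.g617400 had a normalised read count of 7.24, 8.84 and 7.98 without UV-B and of 4.05, 5.98 and 6.79 with UV-B. Every UV-B value was below every no UV-B value, with UV-B replicate 1 the lowest. The mean went from 8.02 ± 0.801 to 5.61 ± 1.41 (SD, n = 3), and the log2 fold change was -0.47 ± 0.16 (SE, limma adjusted p = 0.0137). That call rests on single libraries. Without UV-B replicate 1 the log2 fold change was -0.29 (limma adjusted p = 0.144), and without no UV-B replicate 2 it was -0.40 (limma adjusted p = 0.0563). The call also ended with DESeq2 on recovered reads (adjusted p = 0.05001, where 50.8% of all genes passed) and with libraries scaled to an equal total (limma adjusted p = 0.0551). The range over all alternatives was 0.00331 to 0.144, with the direction kept in each.

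Cre14.g617450 had a normalised read count of 6.36, 5.15 and 6.32 without UV-B and of 4.24, 4.02 and 5.13 with it. The groups did not overlap, but no UV-B replicate 2 and UV-B replicate 3 almost met. The mean was 5.94 ± 0.690 and then 4.47 ± 0.589 (SD, n = 3), and the log2 fold change was -0.35 ± 0.16 (SE, limma adjusted p = 0.0644), just short of the threshold. It passed without no UV-B replicate 2 (limma adjusted p = 0.0367) and without UV-B replicate 3 (limma adjusted p = 0.0429), and over all alternatives the adjusted p was 0.0355 to 0.188. The difference between the members of the pair changed by -0.12 on the log2 scale (two-sided exact permutation p = 0.6), and its sign turned when single libraries were left out, so a different response of the pair was not shown.

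These 3 members had few reads. VIPP2 had 377 reads over the 6 libraries, Cre14.g617400 had 412 and Cre14.g617450 had 319. The coefficient of variation of Cre14.g617400 between cultures was 9.99% without UV-B and 25.1% with UV-B, where counting error alone gives 11.4% and 12.8%. For VIPP2 it was 18.2% and 4.10%, against 12.1% and 13.2% from counting. For Cre14.g617450 it was 11.6% and 13.2%, against 13.2% and 14.3%. The observed value was above that of counting error in 1 group each of Cre14.g617400 and VIPP2, and below it in the other groups. A coefficient of variation from 3 libraries is imprecise, and spread beyond counting error was not tested. Among the 1888 genes with 300 to 500 reads over the libraries, 1013 passed the threshold, a share of 53.7%.

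CLPB3 encodes the chloroplast member of the ClpB family of ATPases, which pull proteins out of aggregates so that other chaperones can refold them. Its normalised read count was 62.3, 57.3 and 63.3 without UV-B and 40.4, 42.1 and 44.6 with UV-B. All UV-B libraries were lower than all no UV-B libraries. The mean went from 61.0 ± 3.23 to 42.4 ± 2.12 (SD, n = 3), a fall of 1.44-fold. The log2 fold change was -0.51 ± 0.08 (SE, limma adjusted p = 2.39e-06). Of all genes tested, 19.4% had a lower log2 fold change. The fall passed the threshold under each of the 19 alternatives, with log2 fold changes of -0.56 to -0.41.

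DEG1C encodes a serine protease of the Deg family, known in the chloroplast of this alga for degrading unfolded proteins. Its normalised read count was 11.6, 10.7 and 11.3 without UV-B and 9.42, 10.9 and 12.01 with UV-B. The groups overlapped, and the UV-B libraries held both the lowest and the highest value. The mean was 11.2 ± 0.478 and then 10.8 ± 1.30 (SD, n = 3). Its log2 fold change was -0.06 ± 0.13 (SE, limma adjusted p = 0.725), with an interval of 0.804-fold to 1.15-fold, and its direction turned under an equal-total scaling (0.042) and without UV-B replicate 1 (0.030). It had 674 reads over the 6 libraries.

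**Figure D3:**
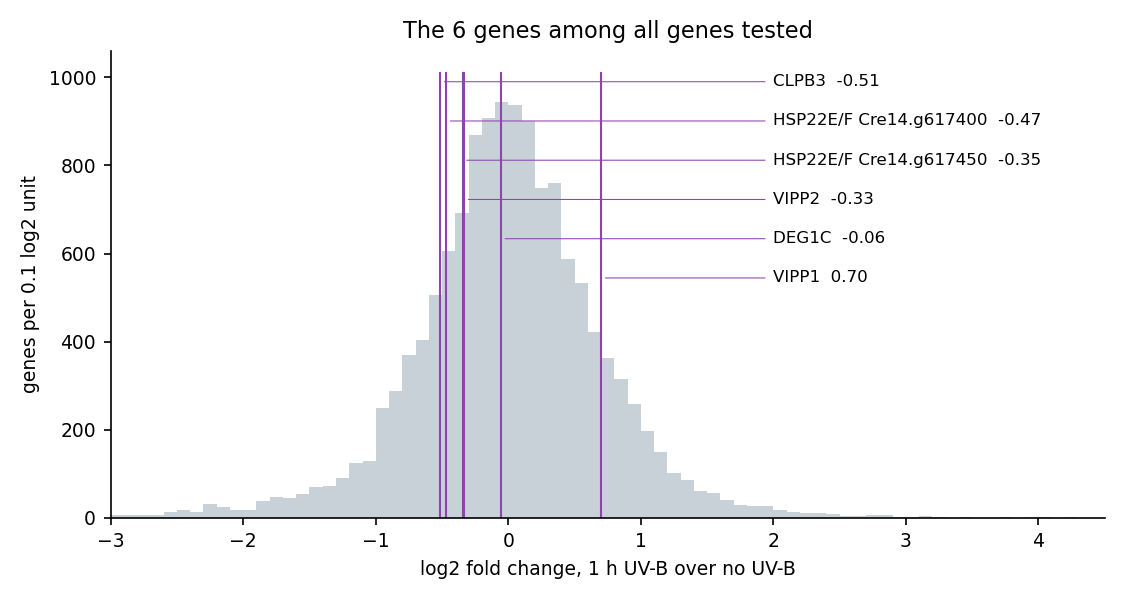
Number of genes (vertical axis) by log2 fold change of 1 h UV-B over no UV-B (horizontal axis, drawn from -3 to 4.5, which leaves out 40 genes) for all 13415 genes tested; vertical lines mark the 6 members. VIPP1 at 0.70 lies on the right shoulder, and the other 5 lie between -0.51 and -0.06, inside the bulk of the genes.

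For the 5 members other than VIPP1, the upper ends of the 95% intervals bound any rise. They were 0.785-fold for CLPB3, 0.908-fold for Cre14.g617400, 0.987-fold for Cre14.g617450, 0.990-fold for VIPP2 and 1.15-fold for DEG1C. The highest upper end over the 17 limma settings was 1.25-fold, for DEG1C with an equal total. For VIPP2 it was 1.08-fold, and for the HSP22 pair 1.04-fold (Cre14.g617400) and 1.06-fold (Cre14.g617450). The pseudocount of 1 makes these folds understate changes of low genes. On the scale of reads, the ratio of pooled reads of VIPP2 was 0.736, with an exact 95% interval of 0.598 to 0.906 for counting error alone.

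**Figure D4:**
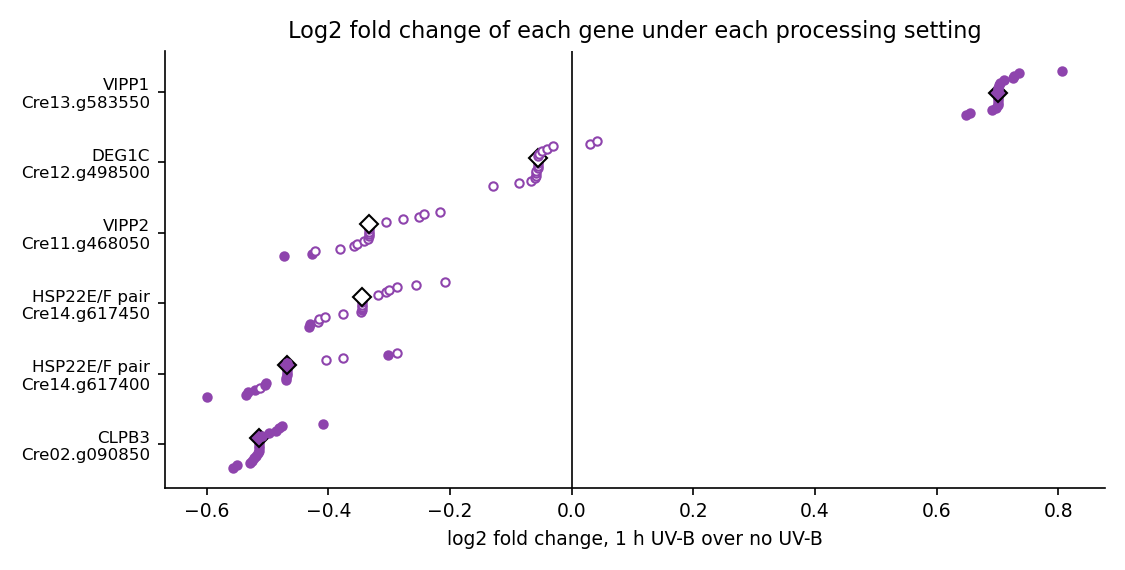
Log2 fold change (horizontal axis) of each member in the reported fit (diamonds) and under the other settings (circles); filled symbols have an adjusted p under 0.05. VIPP1 is filled and positive throughout, CLPB3 filled and negative throughout, and VIPP2 and the HSP22 pair are negative with filled and open symbols.

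Other genes were taken as a list of 16 identifiers, chosen as plastid chaperones, plastid proteases and the kinase of the response. These roles come from the choice of identifiers, and the deposited tables describe only 5 of the 11 that were measured. Of these, 11 were in the table, of which 7 were raised, 2 were lowered and 2 did not pass the limma threshold, where 29.5% of all genes tested were raised and 29.6% lowered. The median log2 fold change of the list was 0.61, against 0.00037 over all genes tested. The list was chosen with earlier results of these data known, and its 6 genes outside the authors' deposited table had a median of -0.041. The identifier chosen for the kinase was among the 5 that did not match a row, so the kinase was not analysed here.

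HSP70B (Cre06.g250100), the HSP70 chaperone of the chloroplast stroma and a partner of VIPP1, had the largest log2 fold change of the list, 1.96 ± 0.07 (SE, limma adjusted p = 1.61e-20). Its normalised read count was 219, 234 and 225 without UV-B and 931, 904 and 819 with UV-B. A pair of genes described as chloroplast DnaJ-like proteins, the family of J-domain partners of HSP70, rose as well. Cre12.g507650 went from 20.1 ± 3.03 to 64.1 ± 5.22 and Cre07.g316050 from 18.6 ± 1.82 to 41.9 ± 9.48 (SD, n = 3). HSP70B and both DnaJ-like genes rose in the same libraries as VIPP1, while CLPB3 fell.

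The FtsH-like protease genes also rose. FtsH proteases of the thylakoid membrane are known for removing damaged photosystem II proteins. Cre12.g485800 went from 841 ± 54.8 to 2583 ± 238 and Cre17.g720050 from 1113 ± 80.7 to 2789 ± 215 (SD, n = 3). These 5 genes are described because they stand in the authors' deposited table of changes over 2-fold. The 6 list genes outside that table had no description, and 2 of them were raised, 2 lowered and 2 not past the threshold. Their log2 fold changes ran from -0.37 to 0.61.

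**Figure D5:**
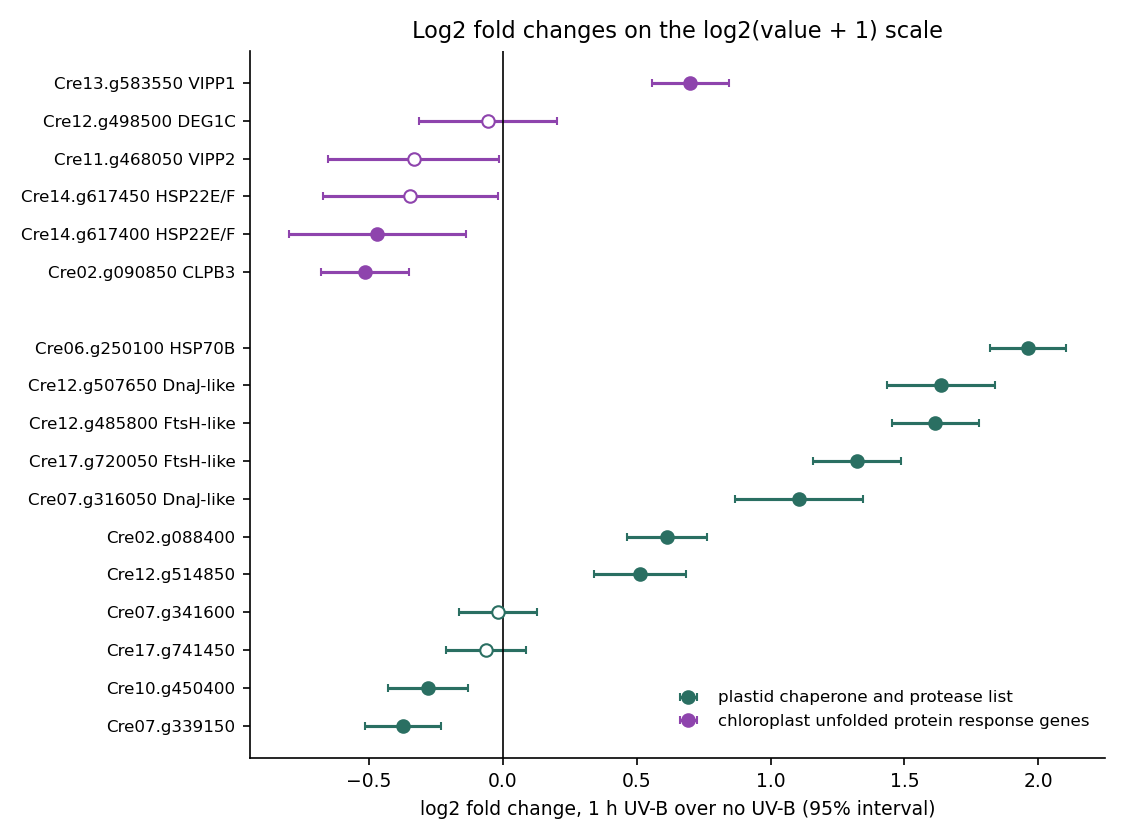
Log2 fold change with its 95% interval (horizontal axis) for the 6 members (upper block) and the 11 measured genes of the plastid chaperone and protease list (lower block); filled symbols have an adjusted p under 0.05. HSP70B at 1.96 and the DnaJ-like and FtsH-like genes lie to the right of VIPP1 at 0.70.

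The authors' deposited table describes further genes of the same protein families as the members. They were chosen after their values were seen. A small heat shock protein gene, described as heat shock protein 22C (g2954), had a normalised read count of 2.63, 1.45 and 1.66 without UV-B and of 1.13, 0.309 and 0.911 with it. It fell, at -0.72 ± 0.21 on the log2 scale (SE; adjusted p = 0.0048, limma), from only 81 reads over the 6 libraries. Genes described as ClpB chaperones of the Hsp100 family went both ways: Cre02.g091400 rose from 7.70 ± 1.12 to 19.1 ± 2.68, and g11575 fell from 33.2 ± 1.08 to 2.79 ± 0.316 (SD, n = 3). A gene described as a DegP-type protease (Cre02.g092000), of the wider Deg family, rose from 0.658 ± 0.210 to 3.48 ± 0.776, from only 130 reads over the 6 libraries.

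Of the 7 measured genes next to the members in the RefSeq order, 2 rose, 2 fell and 3 did not pass the limma threshold, so 4 of 7 passed, where 59.0% of all genes tested did. Beside the HSP22 pair, Cre14.g617350 fell, at -0.77 ± 0.09 on the log2 scale (SE; adjusted p = 2.16e-08, limma), and Cre14.g617500 had 0.09 ± 0.13 (limma adjusted p = 0.582). Beside VIPP1, Cre13.g583600 fell by 0.32 (limma adjusted p = 0.000255) and Cre13.g583500 had a log2 fold change of 0.04 (limma adjusted p = 0.831). Beside DEG1C, Cre12.g498550 and Cre12.g498450 rose by log2 fold changes of 0.77 and 0.40 (limma adjusted p = 5.34e-09 and 0.00095). Cre02.g090900, next to CLPB3, had 0.08 (limma adjusted p = 0.742), and the other neighbours of CLPB3 and VIPP2 did not match a row of the table.

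The genes most like each member were found by the root mean square distance between log2(value + 1) profiles over the 6 libraries, each set to its own no UV-B mean. For VIPP1 they were Cre06.g300700, Cre06.g271850 and g11858, at distances of 0.023, 0.026 and 0.028 and with log2 fold changes of 0.69, 0.71 and 0.73. For CLPB3 they were Cre03.g150700, Cre14.g630500 and Cre15.g637761, at 0.028, 0.032 and 0.034. For VIPP2 they were Cre01.g042000, Cre09.g413114 and Cre17.g735450, at 0.044, 0.046 and 0.053. None of these genes is described in the authors' table, which lists changes over 2-fold.

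For Cre14.g617400 the nearest were Cre06.g296250, Cre02.g076100 and Cre04.g229550, at 0.053, 0.058 and 0.065. For Cre14.g617450 they were g2850, Cre03.g174950 and Cre07.g343100, at 0.055, 0.059 and 0.061. For DEG1C they were g14189, g14554 and Cre13.g579400, at 0.037, 0.041 and 0.047. Members were farther from each other than that, but the nearest genes were selected from all genes tested as the closest, so this says nothing about how alike members are. The closest pair was VIPP2 and Cre14.g617450, at 0.13. Of the other genes tested, 1.45% were closer to VIPP2 and 2.83% were closer to Cre14.g617450, but this pair was picked as the closest. The HSP22 pair was at 0.24, with 9.15% of the other genes closer to Cre14.g617400 and 21.7% closer to Cre14.g617450. VIPP2 and Cre14.g617400 were at 0.30, with 32.9% closer to VIPP2 and 21.7% closer to Cre14.g617400. VIPP1 was 0.55 or more from each of the other members, and 50.1% of the other genes were closer to it than DEG1C, its nearest member.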

How the data were processed

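RNA was sequenced from 3 cultures per group. Per the submitters' processing notes, the authors used TopHat2, HTSeq 0.5.3p9 and edgeR 3.4.2. No source used here names the genome build, gene models or strand setting. The authors deposited a normalised signal per gene, counts of reads relative to an effective library size on a CPM scale, with 13452 genes. They also deposited a table of 2596 genes with p-values, false discovery rates, log2 fold changes and log2 CPM of their own comparison. Every gene of the first table has a CPM over 1 in at least 3 libraries.

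Columns were matched to samples by description labels and titles, and 0 columns of per-sample values were unused. Values were whole multiples of 1 read (within 0.001 reads, 100% of values per library). No UV-B replicate 3 has 0 genes with a single read, so its step came from the spacing of its values. Normalization factors were 0.926 to 1.00 without UV-B and 1.02 to 1.08 with it.

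The test was limma 3.58.1 (R 4.3.3) on log2(value + 1). It covered genes reaching a value of 1 in 3 or more libraries. It was also run on simulated counts in which a far smaller share of genes changed, so that run does not measure its error here. On recovered reads edgeR 4.0.16 called 7943 genes and DESeq2 1.42.0 called 6832, against 7920. Exact tests used SciPy 1.17.1 under Python 3.11.15. Intervals cover counting error only where stated.

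Members, lists and tests were chosen with earlier results of these data known. The named genes were the members, their 3 nearest profiles and their neighbours, and up to 6 described genes per list and direction; genes named beyond that are marked. Lists based on protein similarity and promoter motifs were not run, since no sequences were used here. A folding list of 32 genes came from words in the authors' table and holds 5 genes of the plastid list. The RefSeq table matched 9922 of 13452 identifiers.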

Additional observations from a re-analysis of the deposited data

How the results depend on the processing

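Each result was recomputed with other pseudocounts (0.1, 0.5 and 5), filters, scalings, tools, a stricter threshold and each library left out. Among the scalings, TMM of edgeR gave the values of the reported fit again (3955 raised and 3965 lowered genes). It is counted with the alternatives but is not a separate check. The rise of VIPP1 and the fall of CLPB3 passed the threshold in all 19 alternatives, at 0.65 to 0.81 and -0.56 to -0.41 on the log2 scale. For Cre14.g617400 the call was lost with an equal total (-0.38), with DESeq2 (-0.51), and at an adjusted p of 0.01 (-0.47); leaving out libraries gave -0.60 to -0.29. For Cre14.g617450 it was gained with a minimum value of 5 (-0.35) and without a trend (-0.35), and libraries left out gave -0.43 to -0.29. For VIPP2 it was gained with edgeR (-0.43), and libraries left out gave -0.47 to -0.25. DEG1C turned with an equal total (0.042); libraries left out gave -0.13 to 0.030. Against 2 in the reported fit, lowered members numbered 3 with a minimum value of 5, without a trend and with edgeR. They numbered 1 with an equal total, with DESeq2 and at an adjusted p of 0.01, and 1 to 3 with libraries left out. Of all genes tested, 3965 of 13415 were lowered in the reported fit and 3195 of 9568 with a minimum value of 5. Without a trend 3768 of 13415 were lowered, with edgeR 3983 of 13452, with DESeq2 3476 of 13452 and with an equal total 3191 of 13452. At an adjusted p of 0.01 the number was 3264 of 13415, and with libraries left out 3456 to 3828 of 13173 to 13213. The plastid list had 1 lowered gene with an equal total, against 2. The HSP22 pair's change ran from -0.23 to 0.031 with libraries left out, turning to 0.027 without no UV-B replicate 2 and to 0.031 without UV-B replicate 1, and the VIPP pair's from -1.18 to -0.90. Libraries scaled to an equal total gave 4538 raised and 3191 lowered genes. The causes were not tested.

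With the replicate number as a block, 4020 genes were raised and 4082 lowered, and the block changed no member's call. The deviations of same-numbered libraries from their group means had correlations of 0.045, 0.024 and 0.12 across genes. Deviations within a group cancel out, so the correlations of same-numbered and differently numbered libraries are not independent. Differently numbered libraries had correlations of -0.10 to 0.060, the highest being no UV-B replicate 1 with UV-B replicate 2. The labels give only a shared number, and whether it marks a shared batch was not tested. VIPP2, the HSP22 pair and DEG1C had 319 to 674 reads each; of all genes with 300 to 500 and with 500 to 1000 reads, 53.7% and 60.9% passed.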

Other observations

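A wider set of folding genes moved in both directions. Among 32 genes whose text in the authors' table names chaperones, heat shock proteins, Clp, FtsH or Deg proteins, 23 were raised and 9 were lowered by limma, with a median log2 fold change of 1.16. All 32 stand in that table of changes over 2-fold, so the counts describe direction only. By the authors' log2 fold changes that table holds 1301 raised and 1295 lowered genes. On the log2(value + 1) scale, the largest rises were in genes described as heat shock protein 70C (Cre09.g393200, 2.27 ± 0.10, SE), 70A (Cre08.g372100, 1.98 ± 0.07) and 70B (Cre06.g250100, 1.96 ± 0.07). Next came a ubiquinol-cytochrome c chaperone (Cre01.g052050, 1.88 ± 0.10), heat shock protein 33 (Cre17.g715000, 1.88 ± 0.07) and a DnaJ-like zinc-finger protein (Cre03.g201050, 1.86 ± 0.11). A thylakoid formation protein gene (Cre13.g562850), named here after its values were seen because its described role is close to that of VIPP1, went from 433 ± 49.4 to 1259 ± 59.5 (SD, n = 3).

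On the same scale, the largest falls were in genes described as the ClpD chaperone (Cre10.g465550, -3.26 ± 0.09) and a ClpB chaperone (g11575, -3.17 ± 0.13). The next were DnaJ-like genes: Cre03.g155550 at -1.76 ± 0.14, Cre01.g045650 at -1.54 ± 0.07, Cre17.g713050 at -1.29 ± 0.21 and Cre07.g327450 at -1.26 ± 0.08. The ratio of group means orders them differently: it was 5.29 for a DegP-type protease gene (Cre02.g092000) and 5.03 for 70C among the rises, and the falls were 11.9-fold for g11575 and 9.97-fold for Cre10.g465550.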
